A study of Mus musculus with 13 samples.

Results

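Genes for 10 amino acid transporters of the plasma membrane were examined in the transcriptomes of mouse sciatic nerves with and without Raptor, the protein that makes mTOR complex 1 (mTORC1) functional. The genes were Slc7a5, Slc3a2, Slc43a2, Slc6a15, Slc38a1, Slc38a2, Slc1a4, Slc1a5, Slc7a1, and Slc7a11, out of 40787 genes in the count table. They were listed by name, and Slc43a2 and Slc6a15 were chosen by their counts in uninjured nerves, where they differed between genotypes. For all 10 genes this contrast is therefore described below without a test. RNA sequencing covered 13 nerves in 4 groups at 5 d post-crush (dpc). Control mice carried Rptor flox/flox without Cre, and RaptorKO mice carried the same alleles, recombined in Schwann cells (SCs) after tamoxifen. The labels give the strain as C57BL/6, a background reached by backcrossing. All mice received tamoxifen at 2 months of age, and the sciatic nerve was crushed on 1 side 2 months later. The RNA came from the whole nerve distal to the crush after the epineurium was removed, so that it holds transcripts of SCs and of the other cells of the nerve. Control mice gave 3 contralateral and 3 injured nerves, and RaptorKO mice gave 4 contralateral and 3 injured nerves.

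Amino acids cross the plasma membrane largely through carriers, most of which belong to the solute carrier (SLC) families, and these proteins supply both protein synthesis and mTORC1. Leucine, arginine, and methionine derivatives are sensed inside the cell by Sestrin, CASTOR, and related proteins, which act on the Rag GTPases that bring mTORC1 to the lysosome through Raptor. In the other direction, mTORC1 and amino acid shortage both act on the transcription factor ATF4, which binds amino acid response elements and is known to drive several of the transporters listed here. In the nerve, myelinating SCs are the most abundant cells, and after a crush they shed myelin and dedifferentiate while macrophages enter.

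The DNA near the start sites is shown first, because some of these genes are known ATF4 targets. Promoters of RefSeq (GRCm38.p6, 250 bases before to 50 bases after the start) were found for 6 of the 10 genes, with 8 promoters in all. No promoter was at hand for Slc6a15, Slc7a5, Slc38a1, and Slc1a5, so these genes were not searched. The core of the amino acid response element, searched as TGATGNAA on both strands, occurred in 2 of these 8 promoters, against 3.97% of 32851 promoters. The E-box CACGTG, which reads the same on both strands, occurred in 0 of the 8, against 7.15% of the 32851 promoters searched. These do not cover every chromosome, and only windows of full length were used. The matches were in Slc7a11, which held 2 of them in opposite orientation, and in Slc1a4. They are printed along the strand of the gene, with the matched bases in capitals:
Slc7a11, chr3:50443661-50443690, minus strand, match starting 66 bases before the start: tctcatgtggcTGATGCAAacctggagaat
Slc7a11, chr3:50443642-50443671, minus strand, match starting 47 bases before the start: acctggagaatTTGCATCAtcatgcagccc
Slc1a4, chr11:20332699-20332728, minus strand, match starting 4 bases before the start: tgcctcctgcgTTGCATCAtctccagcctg
In Slc7a11 the first match has the sequence in the direction of transcription, and the second and that of Slc1a4 are its reverse complement. A match describes the letters of this window and does not show binding. As given below, both genes had low counts. Slc7a11 was below the count minimum in every comparison and was not tested. Slc1a4 missed the threshold where it was tested, apart from injury in controls without control contralateral replicate 3.

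Library totals ranged from 8200458 to 13581775 counts, so that 1 count corresponded to 0.0763 to 0.129 CPM, the counts per 1000000 of a TMM-scaled library and the unit of all levels below. Rptor, the targeted gene, was lower in RaptorKO than in control nerves both contralaterally (fold change of 0.501, edgeR quasi-likelihood test, adjusted p = 5.00e-04) and after injury (fold change of 0.622, adjusted p = 0.0167). The second call was lost without control injured replicate 1 (adjusted p = 0.0511), control injured replicate 2 (0.0882), or RaptorKO injured replicate 1 (0.0675). Replicate 3 of both control groups had more Xist than Y-linked counts, unlike the other 11 libraries, which include all RaptorKO nerves. Sex, which these counts mark, was thus not balanced between genotypes, and its part in the genotype contrasts was not tested. Because the crush was on 1 side, the contralateral and injured nerves of a number were taken to come from the same mouse, although the labels do not say so. An antisense gene, Rptoros, shares exon sequence with Rptor. SC and myelin markers were abundant in contralateral nerves and fell with injury, from a summed 85177 to 94358 CPM in controls to 3593 to 4420 CPM, and from 72789 to 89484 CPM in RaptorKOs to 2653 to 3235 CPM. Macrophage markers stood at 162 to 180 CPM in control and 274 to 327 CPM in RaptorKO contralateral nerves, and at 3049 to 3731 and 2058 to 4165 CPM after injury. In such whole tissue, fewer cells of a type and less RNA per cell cannot be told apart.

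Levels of different genes were compared as CPM per kb of annotated exon. In control contralateral nerves Slc3a2 was highest with 88.7 ± 5.33 (SD, n = 3), followed by Slc7a5 with 76.9 ± 6.32. Slc3a2 encodes the 4F2 heavy chain, which carries several light chains to the membrane, and Slc7a5 encodes LAT1, its partner for leucine and other large neutral amino acids. Slc1a5 and Slc38a2 came next with 35.6 ± 3.15 and 34.8 ± 3.86 and overlapped in range. Slc43a2 (8.87 ± 0.851), Slc6a15 (5.14 ± 0.485), Slc7a1 (3.85 ± 0.333), and Slc1a4 (2.34 ± 0.469) followed without overlap between neighbours. Slc7a11 and Slc38a1 were at the bottom with 0.0545 ± 0.0206 and 0.0342 ± 0.0213, and their ranges overlapped. In RaptorKO contralateral nerves the first 4 places were the same, but Slc6a15 stood in place 5 with 11.8 ± 0.348 (SD, n = 4), and Slc43a2 in place 8 with 2.09 ± 0.431, overlapping Slc1a4 (2.22 ± 0.324). Slc3a2 remained highest after injury in both genotypes, at 52 ± 1.27 in controls and 55.3 ± 3.45 in RaptorKOs (SD, n = 3 each). It made up 34.6% of the summed per-kb level of the 10 genes in control contralateral nerves and 54% in control injured nerves.

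**Figure D1:**
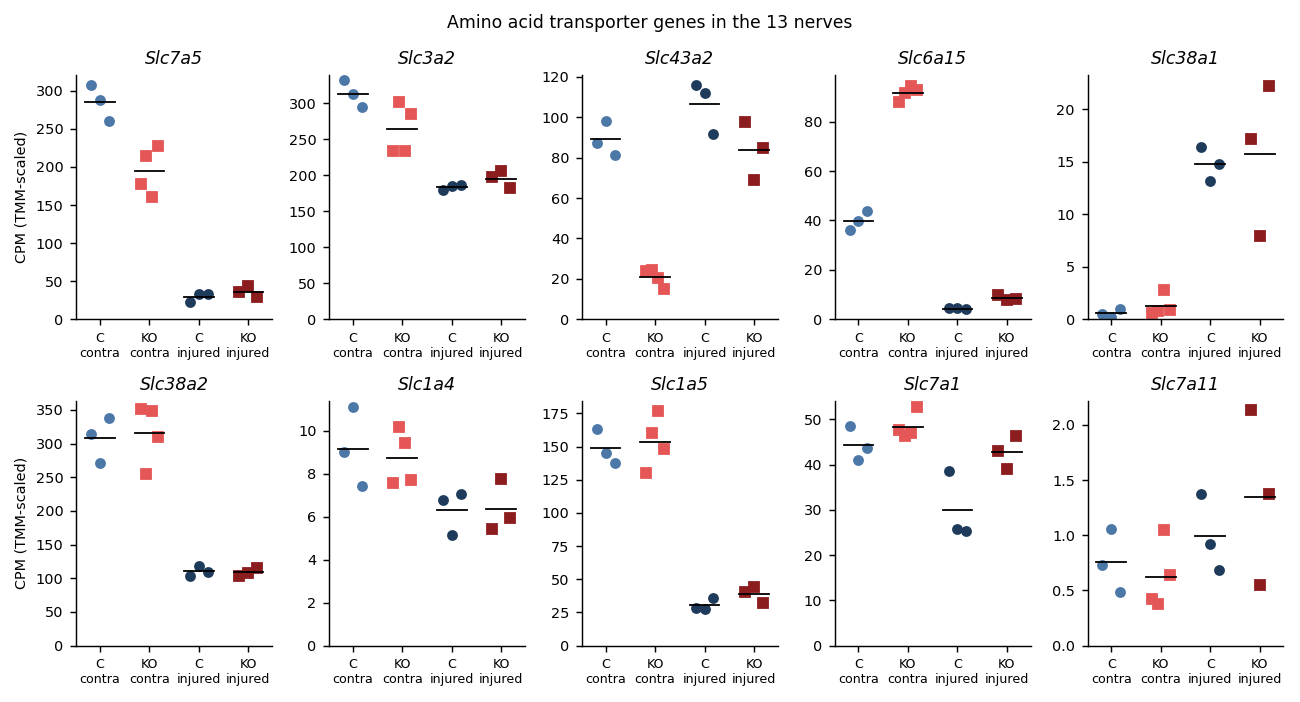
Level of each of the 10 transporter genes (TMM-scaled CPM, linear axes from 0) in the 13 nerves. Circles are control (C) and squares RaptorKO (KO) nerves, contra means contralateral, and black lines are group means. Slc43a2 is low only in the 4 RaptorKO contralateral nerves, and Slc6a15 is higher in RaptorKO nerves on both sides.

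Slc43a2 encodes LAT4, a sodium-independent carrier that lets leucine, isoleucine, phenylalanine, and methionine pass down their gradients. The gene lies on chromosome 11 of GRCm38 from 75531694 to 75577575 on the plus strand. The 3 control contralateral nerves held 87.4, 98.3, and 81.5 CPM, and the 4 RaptorKO contralateral nerves held 23.8, 24.4, 20.6, and 14.9 CPM. Every RaptorKO value was thus below every control value, with a log2 fold change of -2.06 (SE 0.15), or 4.18-fold lower. This is the contrast by which the gene was chosen. Markers of SCs, macrophages, and fibroblasts also differed between these groups, as given at the end, and their part in the value was not tested.

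After injury the 2 genotypes overlapped in Slc43a2. Control injured nerves held 116, 112, and 91.8 CPM, and RaptorKO injured nerves held 97.8, 68.9, and 84.8 CPM. The log2 fold change between genotypes was -0.34 (SE 0.14, 95% interval -0.64 to -0.03), and it did not pass the test (edgeR quasi-likelihood test, adjusted p = 0.182). The adjusted p ranged from 0.124 to 0.399 over 12 alternative settings. From contralateral to injured nerves, Slc43a2 differed by 0.24 on the log2 scale in controls (SE 0.11) and by 1.99 in RaptorKOs (SE 0.18, 3.97-fold higher). The difference between these changes was 1.73 (SE 0.22). These last 3 values contain the nerves that chose the gene and are given without a test. An antisense gene, Gm45606, shares exon sequence with Slc43a2, and the strand setting of the counting is not given in the sources used here. Its own counts were low, at 23, 19, and 8 in control and 5, 6, 11, and 3 in RaptorKO contralateral nerves. Injured nerves had 54, 73, and 91 counts in controls and 64, 39, and 51 in RaptorKOs. The part of Gm45606 in the values of Slc43a2 was not tested.

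Slc6a15 encodes B0AT2, a sodium-dependent importer of branched-chain amino acids and proline that is best known from neurons. It lies on chromosome 10 from 103367783 to 103419377 on the plus strand. Control contralateral nerves held 36.2, 39.6, and 43.7 CPM, and RaptorKO contralateral nerves held 88.1, 91.4, 94.5, and 92.7 CPM. The genotypes did not overlap, and the log2 fold change was 1.22 (SE 0.091, 2.33-fold higher), again in the contrast that chose the gene. Injured nerves had far lower levels, with 4.48, 4.59, and 4.01 CPM in controls. RaptorKO injured nerves held 9.68, 8.02, and 8.41 CPM.

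The injured nerves are other libraries than those that chose Slc6a15, but by their numbers they came from the same mice, so the genotype difference there is not an independent repeat. In them the gene was again higher in RaptorKO nerves, in 3 of 3 against every control nerve, with a log2 fold change of 1.01 (SE 0.25, 95% interval 0.47 to 1.55, adjusted p = 0.0275). The call rests on 41 to 50 counts per control and 92 to 109 counts per RaptorKO library. It was lost without control injured replicate 1 (adjusted p = 0.0706), replicate 2 (0.0848), or replicate 3 (0.08), and without RaptorKO injured replicate 1 (0.126) or replicate 3 (0.0529), although the log2 fold change stayed between 0.92 and 1.05 in these cases. Between contralateral and injured nerves the log2 fold change was -3.21 in controls (SE 0.16) and -3.40 in RaptorKOs (SE 0.12), given as a description.

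Across all genes tested in injured nerves, 8.54% were called between genotypes, 4.09% as higher and 4.44% as lower in RaptorKOs. Of the 10 transporters, 9 had enough counts, 1 rose (Slc6a15), and 0 fell. Their median log2 fold change was 0.10, against 0.001 over all tested genes. In 2 of the 9 the groups did not overlap, Slc6a15 and Slc7a1, against 26.3% of all tested genes.

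Slc7a1 encodes CAT-1, the main carrier of arginine and lysine in many cells, and lies on chromosome 5 from 148327410 to 148399904 on the minus strand. Control injured nerves held 38.5, 25.8, and 25.3 CPM, and RaptorKO injured nerves held 43.1, 39.1, and 46.3 CPM. The lowest RaptorKO value was just above the highest control value, and 1 control nerve lay far from the other controls. The log2 fold change of 0.54 (SE 0.17, 95% interval 0.17 to 0.90) missed the threshold (adjusted p = 0.0752). It passed without control injured replicate 1, the highest control (log2 fold change of 0.75, adjusted p = 0.0174). It also passed with edgeR's exact test (0.0379), DESeq2 (0.038), all 13 libraries in a single fit (0.0355), and no count filter (0.0127). In contralateral nerves Slc7a1 held 40.9 to 48.5 CPM in controls and 46.3 to 52.7 CPM in RaptorKOs.

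**Figure D2:**
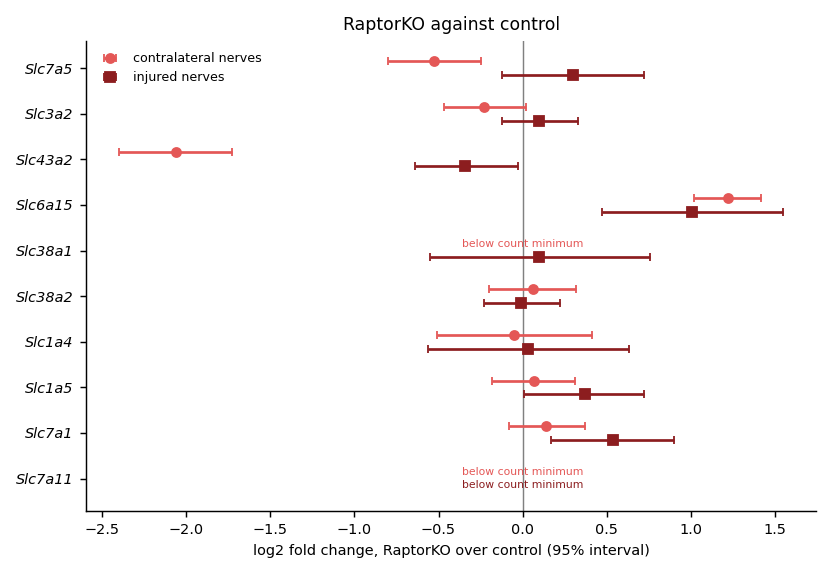
Log2 fold change of RaptorKO over control nerves for each transporter gene, with 95% intervals from the edgeR quasi-likelihood fit, in contralateral (circles) and injured (squares) nerves. The contralateral values chose members of the list and are descriptive. Slc43a2 is at -2.06 contralaterally and -0.34 after injury, whereas Slc6a15 is at 1.22 and 1.01.

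Slc7a5 and Slc3a2, the 2 chains of LAT1, were both at somewhat lower levels in RaptorKO contralateral nerves. For Slc7a5 (chromosome 8, 121881150 to 121907694, minus strand) controls held 307, 288, and 260 CPM, and RaptorKOs held 178, 214, 161, and 227 CPM. These groups did not overlap, and the log2 fold change was -0.53 (SE 0.12). For Slc3a2 (chromosome 19, 8706882 to 8723369, minus strand) controls held 332, 312, and 294 CPM, and RaptorKOs held 234, 302, 234, and 285 CPM, which overlapped (-0.23, SE 0.11). In all, 8 of the 10 genes reached the count minimum in this contrast. Slc43a2, Slc6a15, and Slc7a5 were the 3 without overlap between genotypes, where 23.6% of all tested genes had none. Since the contrast entered the choice of members, nothing is read from this count.

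Injury lowered LAT1 transcripts strongly. In controls Slc7a5 fell to 23, 32.9, and 33.9 CPM (log2 fold change of -3.28, SE 0.15, adjusted p = 2.22e-09), and in RaptorKOs it fell to 36.2, 43.9, and 28.9 CPM (-2.43, SE 0.17, adjusted p = 7.55e-07). The injured groups of the 2 genotypes overlapped (0.30, SE 0.19, adjusted p = 0.429). The fall was numerically smaller in RaptorKOs by 0.83 on the log2 scale (SE 0.23, 95% interval 0.33 to 1.33), which did not pass the test of the interaction (adjusted p = 0.0806). This value passed with DESeq2 (0.0227), no count filter (0.0136), and the mouse as a replicate block (0.91, adjusted p = 0.0255), and without RaptorKO injured replicate 3 (0.046). Part of it comes from the lower contralateral level in RaptorKOs, the contrast that entered the choice of members. Slc3a2 fell much less than Slc7a5. It reached 179, 185, and 187 CPM in control injured nerves (-0.79, SE 0.096, adjusted p = 1.54e-05) and 198, 206, and 182 CPM in RaptorKO injured nerves (-0.44, SE 0.12, adjusted p = 0.0074).

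The make-up of the light chains that pair with Slc3a2 also differed after injury. Among its 6 light-chain partners Slc7a5, Slc7a6, Slc7a7, Slc7a8, Slc7a10, and Slc7a11, Slc7a5 made up 95.3% ± 0.47 of the summed CPM per kb in control contralateral nerves (SD, n = 3) and 90.3% ± 4 in RaptorKO contralateral nerves (n = 4). The RaptorKO contralateral values ran from 84.9% to 93.8%, against 94.8% to 95.8% in controls. In RaptorKO contralateral replicate 3, which held 61 counts of Slc7a10, that gene took 5.39%. After injury the share of Slc7a5 was 23.3% ± 4.66 in controls and 28.3% ± 8.59 in RaptorKOs (n = 3 each). Slc7a8, which encodes LAT2, took 37.6% ± 4.37 and 38.3% ± 9.27, and Slc7a7, which encodes y+LAT1 and exchanges cationic for neutral amino acids, took 28.5% ± 0.527 and 24.6% ± 1.55. Slc7a8 rose from 3.46, 5.3, and 2.15 CPM to 73.7, 60.7, and 60.8 CPM in controls (log2 fold change of 4.11, SE 0.24, adjusted p = 2.21e-08). In RaptorKOs it rose by 3.14 (SE 0.24, adjusted p = 1.57e-06), from 8.32, 5.57, 8.01, and 9.54 CPM to 69.7, 45.7, and 90.8 CPM. Slc7a7 rose by 2.57 in controls (SE 0.15, adjusted p = 2.84e-08) and by 2.17 in RaptorKOs (SE 0.2, adjusted p = 6.05e-06). Its exons overlap those of Oxa1l on the other strand. These changes went along with the rise of macrophage and the fall of myelin markers given above, and their part in the shares was not tested. The 6 partners together came to 0.909 ± 0.018 of the per-kb level of Slc3a2 in control contralateral nerves and to 0.665 ± 0.0171 in control injured nerves.

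**Figure D3:**
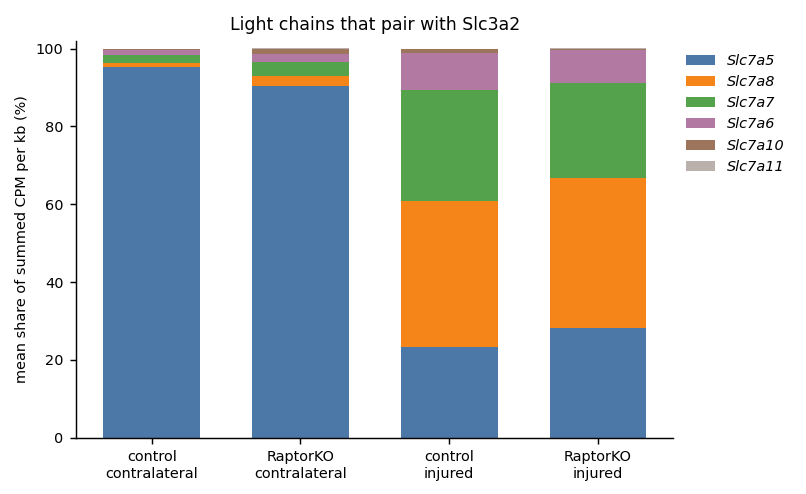
Mean share of each of 6 light-chain genes in their summed CPM per kb of exon, in percent, for the 4 groups (n = 3, 4, 3, and 3 nerves). Slc7a5 makes up 95.3% and 90.3% in contralateral control and RaptorKO nerves and 23.3% and 28.3% after injury, where Slc7a8 and Slc7a7 take larger shares.

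Slc1a5 and Slc38a2, carriers of glutamine and other small neutral amino acids, also fell with injury. Slc1a5 encodes ASCT2 and lies on chromosome 7 from 16781340 to 16798274 on the plus strand. It held 163, 145, and 138 CPM in control contralateral and 28.4, 27.8, and 36 CPM in control injured nerves (log2 fold change of -2.30, SE 0.12, adjusted p = 9.36e-09). In RaptorKOs it held 130, 160, 177, and 148 CPM contralaterally and 40.7, 44.5, and 32.5 CPM after injury (-1.97, SE 0.14, adjusted p = 9.02e-07). Between genotypes the groups overlapped on both sides, with a log2 fold change of 0.37 in injured nerves (SE 0.16, 95% interval 0.01 to 0.72, adjusted p = 0.214) and 0.07 in contralateral nerves (SE 0.11).

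Slc38a2 encodes SNAT2, a sodium-coupled carrier whose gene is known to be induced by amino acid shortage, and lies on chromosome 15 from 96687392 to 96699730 on the minus strand. It held 314, 271, and 338 CPM in control contralateral nerves and 103, 118, and 110 CPM in control injured nerves (-1.50, SE 0.11, adjusted p = 1.75e-07). RaptorKO nerves held 351, 255, 348, and 310 CPM contralaterally and 103, 108, and 116 CPM after injury (-1.54, SE 0.13, adjusted p = 2.17e-06). Of the tested members it was the closest between genotypes after injury, with a log2 fold change of -0.01 whose 95% interval ran from -0.23 to 0.22 (adjusted p = 0.984). Over 12 alternatives the value lay between -0.06 and 0.04, and its sign turned without control injured replicate 2 (0.04) or RaptorKO injured replicate 1 (0.03).

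Slc38a1, the neighbouring gene for the related carrier SNAT1 (chromosome 15, 96571418 to 96642913, minus strand), moved the opposite way. It had 3 to 10 counts per control contralateral library, or 0.546, 0.245, and 0.976 CPM, and 16.4, 13.2, and 14.8 CPM in control injured nerves. The rise was 4.64 on the log2 scale (SE 0.37, adjusted p = 3.83e-07). In RaptorKOs it had 0.64, 0.84, 2.76, and 0.902 CPM contralaterally and 17.2, 7.94, and 22.2 CPM after injury, a rise of 3.59 (SE 0.49, adjusted p = 1.10e-04). All injured values were above all contralateral values. Without RaptorKO contralateral replicate 3, the nerve at 2.76 CPM, the rise in RaptorKOs was 4.27 (adjusted p = 1.16e-05). That library also had the highest adipocyte markers, 133 summed CPM against 0 to 9.17 in the other 3 of its group, and its part in the value was not tested. The genotypes overlapped after injury (0.10, SE 0.3, 95% interval -0.55 to 0.76, adjusted p = 0.902), and the sign turned without RaptorKO injured replicate 3 (-0.22).

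Slc1a4, Slc7a1, and Slc7a11 had smaller injury changes or too few counts. Slc1a4 encodes ASCT1, a carrier of alanine, serine, and cysteine, and lies on chromosome 11 from 20302180 to 20332713 on the minus strand. It held 9.01, 11.1, and 7.42 CPM in control contralateral and 6.76, 5.14, and 7.05 CPM in control injured nerves. These groups did not overlap, but the log2 fold change of -0.57 (SE 0.25) missed the threshold (adjusted p = 0.0627). It passed without control contralateral replicate 3 (-0.70, adjusted p = 0.0416). In RaptorKOs Slc1a4 held 7.57 to 10.2 CPM contralaterally and 5.42 to 7.78 CPM after injury (-0.46, SE 0.23, adjusted p = 0.106). Between genotypes after injury its log2 fold change was 0.03 (SE 0.27, adjusted p = 0.967), and the sign turned without control injured replicate 2 (-0.10) or RaptorKO injured replicate 2 (-0.14).

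Slc7a1 fell with injury in controls, from 48.5, 40.9, and 43.6 CPM to the values given above (log2 fold change of -0.60, SE 0.16, adjusted p = 0.00668). In RaptorKOs the change was -0.18 (SE 0.11, adjusted p = 0.175), and the difference between the genotypes' changes did not pass (0.40, SE 0.2, 95% interval -0.03 to 0.83, adjusted p = 0.411). Slc7a11 encodes xCT, the cystine-glutamate exchanger that supplies cysteine for glutathione, and lies on chromosome 3 from 49892526 to 50443614 on the minus strand. It had 4 to 24 counts per library, with 0.488 to 1.06 CPM in control contralateral, 0.382 to 1.05 in RaptorKO contralateral, 0.685 to 1.37 in control injured, and 0.55 to 2.13 in RaptorKO injured nerves. All 4 groups overlapped, and the gene was below the count minimum in every comparison.

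**Figure D4:**
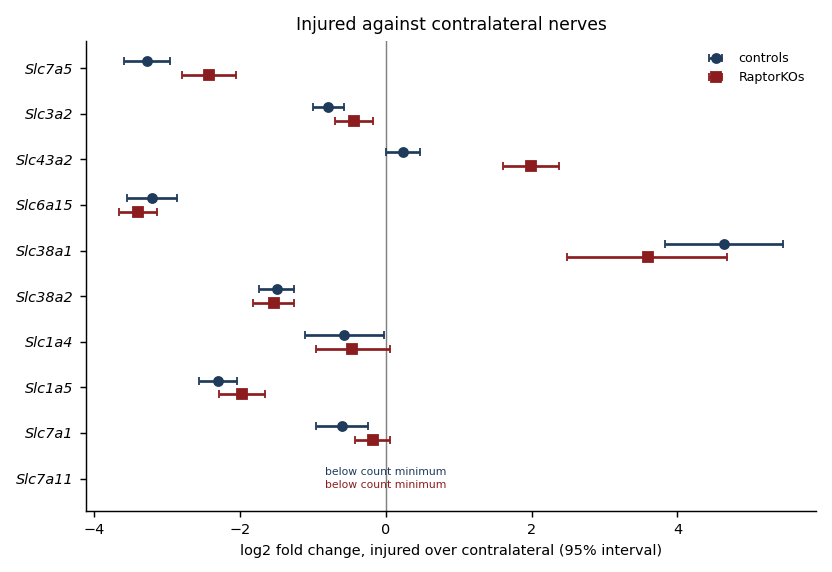
Log2 fold change of injured over contralateral nerves for each transporter gene, with 95% intervals from the edgeR quasi-likelihood fit, in controls (circles) and RaptorKOs (squares). Slc7a5, Slc1a5, Slc6a15, and Slc38a2 lie between -3.40 and -1.50, and Slc38a1 lies at 4.64 and 3.59. Values of Slc43a2 and Slc6a15 are descriptive.

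Injury changed most of the transcriptome, so the counts of transporters must be read against it. In controls 65.3% of tested genes were called, 32.9% lower and 32.4% higher. Of the 8 transporters other than Slc43a2 and Slc6a15, 7 were tested, 5 fell (Slc7a5, Slc1a5, Slc38a2, Slc3a2, and Slc7a1), and 1 rose (Slc38a1). Injured and contralateral nerves did not overlap in 7 of the 7, against 70.9% of all tested genes. In RaptorKOs 58.9% of tested genes were called, 28.5% lower and 30.5% higher, and of the same 7 genes 4 fell and 1 rose, Slc7a1 being the difference. The nerves did not overlap in 6 of the 7, against 60.6%. Both comparisons contain the contralateral nerves of the contrast that entered the choice of members. For the interaction 2.47% of tested genes were called, 1.41% negative and 1.07% positive, and 0 of the 7 transporters were, while 2 (Slc7a5 and Slc3a2) had an unadjusted p below 0.05, against 14.2% of all tested genes. DESeq2 called 1 of the 7 (Slc7a5), against 4.65% of all genes it tested.

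Beyond these 10 genes, 38 further transporter genes for amino acids were listed, including those of the lysosome. In injured nerves 18 were tested, 1 rose in RaptorKOs, and 0 fell, against 4.09% higher and 4.44% lower of all tested genes. The gene that rose was Slc7a2, which encodes CAT-2, a second carrier of cationic amino acids. It held 32.7, 31, and 38.4 CPM in control injured and 57.6, 52, and 66 CPM in RaptorKO injured nerves (log2 fold change of 0.80, SE 0.14, adjusted p = 0.00497). A non-coding gene on the other strand, Gm26584, shares exon sequence with it. In contralateral nerves, where 10.2% of all tested genes were called (5.68% lower and 4.49% higher), 20 were tested, 3 fell, and 2 rose in RaptorKOs. Slc7a2 rose there too, from 420, 465, and 393 CPM to 550, 539, 544, and 669 CPM (0.45, SE 0.1, adjusted p = 0.0206), but the call was lost without control contralateral replicate 1 (0.0816) or replicate 3 (0.0798).

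The 3 genes that fell in RaptorKO contralateral nerves were Slc1a2, Ctns, and Slc36a2. Slc1a2 encodes the glutamate transporter GLT-1 and went from 10, 13, and 11.7 CPM to 3.31, 3.28, 4.19, and 3.74 CPM (log2 fold change of -1.65, SE 0.21, adjusted p = 7.81e-04). The antisense gene Gm13872 shares exon sequence with it. Ctns encodes cystinosin, which exports cystine from lysosomes, and went from 107, 124, and 93.1 CPM to 58.8, 53.7, 41.4, and 52.7 CPM (-1.04, SE 0.13, adjusted p = 7.68e-04). Slc36a2 encodes a proton-coupled carrier of glycine, alanine, and proline and went from 424, 459, and 419 CPM to 223, 255, 204, and 292 CPM (-0.81, SE 0.12, adjusted p = 0.00194). For these 3 genes no library of one genotype reached the range of the other. Slc38a4 rose (1.48, SE 0.39, adjusted p = 0.0389), from 1.27 to 4.59 CPM in controls to 5.73 to 9.92 CPM in RaptorKOs. That call was lost without control contralateral replicate 1 (0.101) or 2 (0.138) or RaptorKO contralateral replicate 1 (0.0981) or 3 (0.0624).

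Ctns was also the gene of this list whose injury change differed between genotypes, 1 of 21 tested, against 2.47% of all tested genes. It fell by 1.50 on the log2 scale in controls (log2 fold change of -1.50, SE 0.12, adjusted p = 3.05e-07) and by less in RaptorKOs (-0.50, SE 0.16, adjusted p = 0.0212), and the difference of 0.98 passed the test (SE 0.21, adjusted p = 0.0263). After injury Ctns stood at 36.5, 41.4, and 38.6 CPM in controls. It overlapped with the 41.4, 28.6, and 39.9 CPM of the RaptorKOs. The call was lost without control contralateral replicate 1 (0.0633) or 2 (0.081), control injured replicate 1 (0.0655), 2 (0.052), or 3 (0.0565), or RaptorKO injured replicate 1 (0.0724) or 3 (0.0582).

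With injury, 6 of 20 tested genes of this list fell and 9 rose in controls, and 5 fell and 8 rose in RaptorKOs. Of all tested genes 32.9% fell and 32.4% rose in controls, and 28.5% fell and 30.5% rose in RaptorKOs. Slc36a2 fell most, to 1.55, 4.95, and 5.29 CPM in controls (log2 fold change of -6.82, SE 0.28, adjusted p = 1.33e-09) and to 6.4, 3.07, and 3.29 CPM in RaptorKOs (-5.85, SE 0.26, adjusted p = 3.16e-08). Slc7a2 fell by a log2 fold change of -3.67 in controls (SE 0.13, adjusted p = 3.05e-10) and -3.30 in RaptorKOs (SE 0.13, adjusted p = 1.80e-08). Slc16a10, which encodes the aromatic amino acid carrier TAT1, rose by 4.16 in controls (SE 0.46, adjusted p = 7.08e-06) and 3.25 in RaptorKOs (SE 0.52, adjusted p = 3.23e-04), the second becoming 3.92 without RaptorKO contralateral replicate 4 and 3.89 with the mouse as a block. In controls Slc1a2 fell by 3.91 on the log2 scale and Slc6a20a, a proline carrier, fell by 4.68 (adjusted p = 1.79e-05 and 4.86e-05). Both have few injured counts, and without control injured replicate 1 the values were -4.73 and -5.56. In RaptorKOs Slc6a20a fell by 3.42 (adjusted p = 0.0013), and the value was -4.03 without RaptorKO injured replicate 3. Exons of Ccr9 overlap Slc6a20a on the other strand.

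The intracellular sensors that couple amino acids to mTORC1 formed a list of 27 genes. In injured nerves 26 were tested, 2 fell in RaptorKOs, and 0 rose, against 4.44% lower and 4.09% higher of all tested genes. Castor2, whose product belongs to the arginine sensors of the CASTOR family, went from 48.9, 43.7, and 49.6 CPM to 30.4, 27.3, and 30.5 CPM (log2 fold change of -0.68, SE 0.12, adjusted p = 0.0068). Sesn3, a Sestrin, went from 125, 117, and 111 CPM to 73.7, 60.4, and 88.8 CPM (-0.65, SE 0.13, adjusted p = 0.0133), and this call was lost without control injured replicate 2 (0.0515) or RaptorKO injured replicate 1 (0.0592). In contralateral nerves 27 were tested and 3 fell, Sesn3 (-0.95, SE 0.11, adjusted p = 3.40e-04), Castor2 (-0.78, SE 0.11, adjusted p = 0.00139), and Sesn1 (-0.65, SE 0.087, adjusted p = 0.00117). The gene that rose was Flcn (0.47, SE 0.1, adjusted p = 0.0172), which encodes folliculin, an activator of Rag GTPases, and it missed the threshold without control contralateral replicate 1 (0.0727) or 2 (0.0846). Of all tested genes in contralateral nerves, 5.68% were called lower and 4.49% higher. With injury 6 of the 27 fell and 9 rose in each genotype. Of all tested genes 32.9% fell and 32.4% rose in controls, and 28.5% fell and 30.5% rose in RaptorKOs.

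Atf4 and 17 targets that are not transporters formed the last list, whose calls between genotypes were near the shares of all tested genes. In injured nerves 14 were tested and 1 rose (8.54% of all genes were called), Nupr1, a stress-induced nuclear protein (0.60, SE 0.13, adjusted p = 0.0139). That call was lost with all 13 libraries in a single fit (0.122) and without control injured replicate 2 (0.0582), control injured replicate 3 (0.0515), or RaptorKO injured replicate 1 (0.0558). In contralateral nerves 13 were tested and 1 rose (10.2% of all genes were called), the lipoprotein receptor gene Vldlr (0.61, SE 0.13, adjusted p = 0.0147), which missed the threshold without control contralateral replicate 1 (0.0755). Atf4 itself differed between genotypes by 0.15 in injured (SE 0.12, adjusted p = 0.537) and 0.19 in contralateral nerves (SE 0.095, adjusted p = 0.257). With injury 4 fell and 6 rose in controls, and 4 fell and 4 rose in RaptorKOs. The shares of all tested genes were 32.9% lower and 32.4% higher in controls, and 28.5% and 30.5% in RaptorKOs. Among the listed genes Phgdh, the first enzyme of serine synthesis, fell (-2.25 in controls, SE 0.092, adjusted p = 1.18e-09), and Mthfd2, a mitochondrial folate enzyme, rose (0.99, SE 0.26, adjusted p = 0.00549).

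To find genes whose pattern over the 13 nerves was most like that of a transporter, log2 CPM were centred on their mean, and 12193 genes were ranked by the root mean square difference. This is a description in which all genes share the same libraries. The gene nearest to Slc6a15 was Slc7a2, at 0.342 log2 units, ahead of Myoc (0.395), Zkscan16 (0.438), Nrip2 (0.448), and Rasgef1a (0.448). The group means of Slc7a2 were 426, 575, 34, and 58.5 CPM in control contralateral, RaptorKO contralateral, control injured, and RaptorKO injured nerves, against 39.9, 91.7, 4.36, and 8.7 CPM for Slc6a15. The gene nearest to Slc43a2 was Ucp2, a mitochondrial carrier gene (0.432), with means of 381, 184, 575, and 508 CPM in the same order. It was followed by Lrrc27 (0.441), Tpmt (0.464), Ap1s2 (0.469), and Mettl15 (0.513). Slc7a5 had closer neighbours, with Spint1 at 0.175, Myo1d and Mgat3 at 0.219, Itpkb at 0.220, and Slco3a1 at 0.229.

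**Figure D5:**
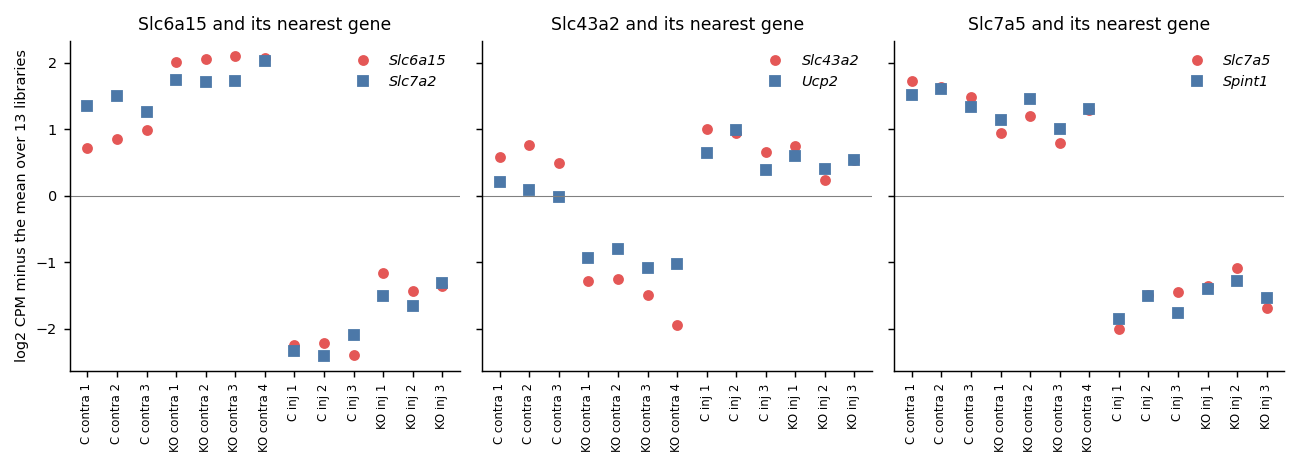
Log2 CPM minus the mean over the 13 nerves for Slc6a15, Slc43a2, and Slc7a5 (circles) and for the nearest gene of each (squares), in each nerve (C, control; KO, RaptorKO; contra, contralateral; inj, injured). The root mean square differences are 0.342 for Slc7a2, 0.432 for Ucp2, and 0.175 for Spint1.

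Other cell types also differed between genotypes, and their values stand beside the genotype contrasts above. Of all tested genes 10.2% were called between genotypes in contralateral and 8.54% in injured nerves. In contralateral nerves 5 of 7 tested macrophage markers, 3 of 5 fibroblast markers, and 2 of 5 mast cell markers were called higher in RaptorKOs. Also called higher were 2 of 4 erythrocyte markers and the 1 tested marker of dividing cells. All 5 listed markers of dividing cells summed to 4.55 to 9.7 CPM in controls and 18.5 to 29.8 CPM in RaptorKOs. Of the 8 SC and myelin markers 2 were called lower. Summed fibroblast markers were 4713 to 5620 CPM in controls and 7570 to 10376 CPM in RaptorKOs. Of the endothelial markers 0 of 6 were called in contralateral nerves, and of the pericyte and smooth muscle markers 0 of 5. After injury 6 of 6 endothelial markers (227 to 339 CPM in controls and 406 to 643 CPM in RaptorKOs) and 4 of 5 mast cell markers (8.44 to 52 and 101 to 193 CPM) were called higher in RaptorKOs. The same held for 4 of 5 pericyte and smooth muscle markers (410 to 536 and 775 to 1132 CPM), 3 of 3 tested erythrocyte markers, and 2 of 5 fibroblast markers. Of the 8 macrophage markers 0 were called after injury. Of the 8 SC and myelin markers 2 were called lower. Markers of dividing cells were lower, 5 of 5, at 1214 to 1342 CPM in controls and 674 to 732 CPM in RaptorKOs. Their part in the values of Slc43a2, Slc6a15, Slc7a1, and Slc7a2 was not tested.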

How the data were processed

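RNA was sequenced from 13 mouse sciatic nerves. The authors trimmed the reads with Trimmomatic, used GRCm38 and quantified genes with RSEM 1.2.22, per the labels and the methods of the study, and deposited expected counts, which are not whole for 24.93% to 27.95% of nonzero values. The annotation and the strand setting are not given in the sources used here. These estimated counts were rounded. Library totals were 8200458 to 13581775 counts, which limits the precision of genes with few counts. Reads were not aligned again.

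The tests used edgeR 4.0.16 under R 4.3.3 (TMM factors, quasi-likelihood test), and figures were drawn with matplotlib 3.10.9. Only the groups compared entered a fit. Genes with a minimum of 50 counts in 2 or more libraries of a comparison were tested, and called at an adjusted p (Benjamini-Hochberg over all tested genes) below 0.05 with a fold change above 1.2. SEs and 95% intervals are those of the log2 fold change. Log2 CPM used a prior count of 2. Exon lengths were unions of GENCODE M21 exons. The script was tested on simulated counts with known changes.

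Same-numbered contralateral and injured nerves were taken as pairs from 1 mouse, since the study sequenced injured nerves with their contralateral counterparts after a crush on 1 side. Deviations from the group means correlated by 0.067, 0.129, and 0.305 in control pairs and -0.024, 0.211, and 0.168 in RaptorKO pairs. Unlike numbers gave -0.225 to 0.136 in controls and -0.298 to 0.137 in RaptorKOs. Same-numbered nerves of different genotypes, thus of different mice, gave 0.072, 0.254, and 0.301 contralaterally and 0.027, 0.014, and -0.05 after injury. The correlations alone therefore do not show that a number marks 1 mouse. The only 2 libraries with high Xist shared a number. The fits of injury and of the interaction have no block, and the blocked fit is an alternative. The p-values set a difference against the spread between these libraries, which edgeR estimates partly from all tested genes. Without a block, paired nerves were treated as independent.

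The 10 members, the other gene lists, the motifs, and the tests were chosen with earlier results of these data known. All members are named. From each other list, in each comparison, the rule for naming took up to 3 called genes per direction with the largest fold change and no overlap between groups, and some of these are given in the text only by counts. For Slc6a15, Slc43a2, and Slc7a5 the rule took the 5 most similar genes. Alternatives were edgeR's exact test, DESeq2 1.42.0, RLE factors, no count filter, all 13 libraries in 1 fit, a replicate block, an adjusted p below 0.01, and leaving out each library.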

Additional observations from a re-analysis of the deposited data

Results flagged for a closer look

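Slc38a1 was at 2.76 CPM in RaptorKO contralateral replicate 3, against 0.64, 0.84, and 0.902 CPM in the other 3 nerves of the group. It stood apart by Dixon's test on 29 counts, against 6 to 11 in the others. This test was applied to 10 values in the only group of 4 nerves, 1 for each transporter gene, and chance gives about 1 such value in 20. The same library had 35.1 CPM of Slc43a1, against 6.72 to 13.3 CPM in the other 3, and 5.81 CPM of Slc7a10, which was listed at 0 in the other 3.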

How the results depend on the processing

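Of the 10 transporters, the number called between genotypes in injured nerves was 1. It became 2 with the exact test, with all 13 libraries in 1 fit, with DESeq2, and with no count filter, and 0 at an adjusted p below 0.01 or with a replicate block. It ranged from 0 to 1 when single libraries were left out. For injury and the interaction, Slc43a2 and Slc6a15 were left out of the counts, since they are described without a test. Among the other transporters the number called in the interaction was 0. It was 1 with DESeq2, no count filter, and a replicate block, and 0 to 1 without single libraries. Of the 38 other transporters, 5 were called in contralateral nerves and 3 at an adjusted p below 0.01, with 3 to 6 when single libraries were left out (3 without control contralateral replicate 1). For the interaction 1 was called, 0 at an adjusted p below 0.01, and 0 to 1 without single libraries. The other counts stayed within 1.5 times. Signs that turned belonged to values that were not called. In injured nerves these were Slc38a1 (0.10, ranging from -0.22 to 0.42 without single libraries), Slc38a2 (-0.01, -0.06 to 0.04), and Slc1a4 (0.03, -0.14 to 0.14). In the interaction they were Slc38a2 (-0.06, -0.15 to 0.02) and Slc1a4 (0.09, -0.08 to 0.22). In contralateral nerves, described without a test, Slc1a4 (-0.18 to 0.11) and Slc38a2 (-0.03 to 0.14) also had values on both sides of 0. The causes were not tested.

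With the mouse as a replicate block, the fits of injury and of the interaction changed 1 call among the named genes, Slc7a5 in the interaction (0.91, adjusted p = 0.0255). Between genotypes a shared number marks different mice. With the number as a block there, Slc6a15 in injured nerves had the same log2 fold change of 1.01 and an adjusted p of 0.0604. Slc7a11, and Slc38a1 in contralateral nerves, had too few counts for a test at this depth.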
